A study of Mus musculus with 6 samples.

Results

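Ly6c2-positive recruited monocytes and macrophages of the mouse lung were picked out of single-cell RNA sequencing libraries by their own transcripts, and they numbered 4134 of 76800 kept cells. A kept cell had at least 500 UMIs (unique molecular identifiers, each standing for 1 captured RNA molecule), at least 300 genes and under 20% mitochondrial UMIs. A member had at least 4 UMIs of Ly6c2, Ccr2, Ms4a4c and Ms4a6c together, with Ly6c2 present and Ms4a6d or Csf1r present. It had under 4 UMIs of the complement genes C1qa, C1qb and C1qc, under 2 of the 4 nonclassical monocyte genes Treml4, Adgre4, Cd300e and Ace, and under 2 of the alveolar macrophage genes Marco, Ctsk, Siglecf, Ear1 and Plet1. Cells with any UMI of Cd3e, Cd79a or Cdh5 were left out. These values chose the cells, so the levels of these 21 genes in the members are given as a description without a test.

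The lungs came from male mice of the C57BL/6J genotype, 12 weeks old and assigned at random, and were taken at day 3 after treatment. In the SLC+LPS group, mice received lipopolysaccharide (LPS, the outer membrane lipid of Gram-negative bacteria) at 1 mg/kg together with 7 activations of the SLC, the subcoeruleus nucleus of the brainstem, which the labels call SLC-Gq. In the LPS group they received LPS at the same dose, and in the control group PBS. Each group held 2 mice as biological replicates, and a library is named by its group and number, such as SLC+LPS_1. When the activations fell relative to LPS, by what agent or allele they were made, and whether the LPS and control mice carried it are not given in the sources used here. No group with SLC activation alone was analysed here.

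Classical monocytes leave the bone marrow under the chemokine receptor CCR2, circulate with high surface Ly6C and enter inflamed tissue, where they can mature into macrophages. LPS is sensed by TLR4, whose signalling drives cytokine and chemokine genes and, through interferon beta, interferon-stimulated genes. Activated mouse macrophages use arginine by way of nitric oxide synthase (Nos2) or arginase (Arg1), enzymes often taken to mark inflammatory and repair states, and adrenergic receptors on such cells bind the catecholamines of sympathetic nerves.

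Genes that the rule did not use matched the label in part. Levels are given as CPM, a gene's UMIs summed over cells of a library and scaled to a common total of UMIs. Over the 6 libraries F13a1, a coagulation factor subunit made by monocytes, averaged 723 CPM in members and 126 CPM in all other kept cells. The averages were 311 and 38.0 CPM for the proteoglycan Vcan, and 2467 and 601 CPM for the monocyte and neutrophil gene Plac8. In nonclassical monocytes, picked by their own genes, F13a1 averaged 93.5 CPM, Vcan 71.4 CPM and Plac8 2855 CPM, so Plac8 was no lower there than in members. In C1q-positive macrophages F13a1 averaged 903 CPM, above its level in members, and Vcan 18.1 CPM. Neutrophil genes were present too: Ngp, a granule protein of neutrophil precursors, averaged 900 CPM in members against 133 CPM in other cells. T cell markers summed to between 2 and 61 CPM and endothelial markers to between 18 and 42 CPM in members. The rule left out cells with Cd3e, Cd79a or Cdh5, genes of the T cell, B cell and endothelial lists, so these sums were partly set by it. NK cell markers reached 317 CPM in control_1, B cell markers 142 CPM in control_2 and platelet markers 115 CPM in SLC+LPS_1.

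LPS_2 stood apart. Of its members, 430 (40.6%) carried at least 4 of the 6 neutrophil genes Cxcr2, Retnlg, Csf3r, Mmp9, Hdc and G0s2, against 43 (7.80%) in SLC+LPS_1, 120 (9.17%) in SLC+LPS_2, 148 (13.5%) in LPS_1, 7 (9.46%) in control_1 and 2 (4.65%) in control_2. In LPS_2 these carriers had 1960 CPM of Cxcr2, close to the 1902 CPM of other cells of that library with at least 5 of the genes, and the remaining members had 11.9 CPM. Their Fn1 (fibronectin) stood at 78.9 CPM against 1153 CPM in the remaining members, and Ccr2 at 28.1 against 379 CPM. Carriers reached a median of 9 UMIs over Ly6c2, Ccr2, Ms4a4c and Ms4a6c, and the other members of LPS_2 a median of 48. Median total UMIs were 3475.5 in carriers and 6106.5 in the others, so the carriers were not the deepest cells. At a looser cut, 2 or more UMIs over Cxcr2, Retnlg, Mmp9 and Csf3r, neutrophil UMIs were not confined to LPS_2. They were seen in 31.0% and 39.3% of SLC+LPS members, 51.5% and 67.4% of LPS members, and 17.6% and 18.6% of control members. Levels are therefore given per library, and list medians also without LPS_2 where leaving it out turned their direction or moved them by over 1.5 times.

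**Figure D1:**
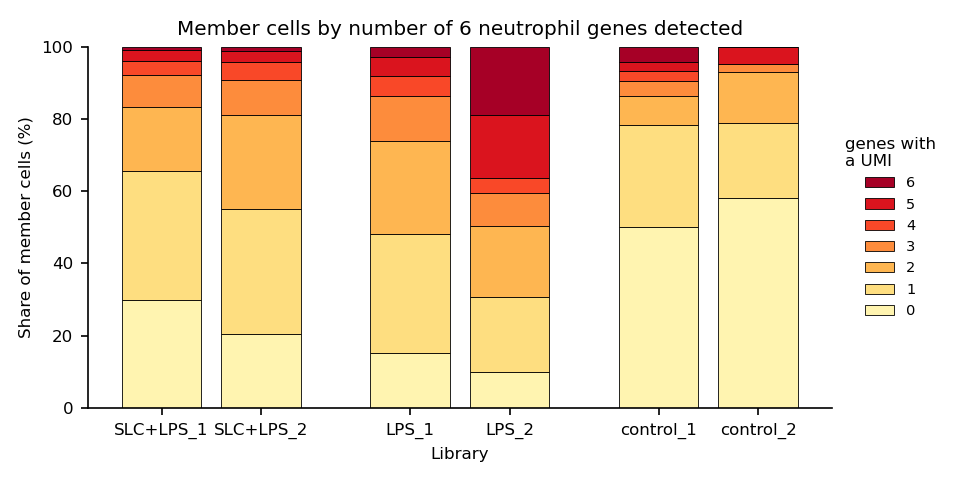
Stacked bars give the share of member cells (%, vertical axis) of each library by how many of 6 neutrophil genes had at least 1 UMI, shaded from 0 (light) to 6 (dark). LPS_2 has 40.6% of its members at 4 or more genes, against 4.65% to 13.5% in the other 5 libraries.

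The libraries held 31589233 to 48641470 UMIs and 11608 to 13710 kept cells, with a median of 1134 to 2606 UMIs per kept cell. Summed member UMIs were 3217088 and 4660146 in SLC+LPS_1 and SLC+LPS_2, 5158346 and 5491256 in LPS_1 and LPS_2, and 309360 and 120103 in the 2 controls, so low genes are measured least precisely in controls. Control_2, LPS_1 and SLC+LPS_1 shared 18534 to 22638 barcodes pairwise, against 634 to 1708 in other pairs. Among barcodes kept in both libraries of a pair the overlap was 0 to 6. Kept cells whose barcode was present in the other library, kept there or not, were far more. Pairwise they numbered 4807 to 8709 among control_2, LPS_1 and SLC+LPS_1, against 28 to 135 in other pairs. The reason is not known, and its part in the results was not tested. Free RNA in members, estimated from genes of cells that should be absent and from barcodes of 10 to 100 UMIs, was 23.5% and 100% in the SLC+LPS libraries, 64.2% and 13.9% in the LPS libraries, and 22.9% and 21.1% in the controls, where 100% is the estimate's cap. Fibroblast markers, a part of that estimate, summed to 2200 and 5312 CPM in the SLC+LPS members, 5751 and 207 CPM in the LPS members and 4409 and 1440 CPM in control members. SLC+LPS_2 members held Arg1 at 4.73, H2-Aa at 3.06, Il1b at 2.73 and S100a8 at 0.974 times the level of its low barcodes. The capped 100% therefore cannot hold for every gene. For nonclassical monocytes of SLC+LPS_2 the estimate was 22.3%. Free RNA shares of single genes in SLC+LPS, given below, include the capped value.

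Members were a larger share of kept cells in both treated groups than in controls. They made up 551 of 13427 cells (4.10%, exact 95% binomial interval 3.77 to 4.45) in SLC+LPS_1 and 1308 of 12938 (10.1%, 9.60 to 10.6) in SLC+LPS_2. In LPS_1 they were 1098 of 13710 cells (8.01%, 7.56 to 8.48) and in LPS_2 1060 of 11608 (9.13%, 8.61 to 9.67). Control_1 held 74 of 12673 cells (0.584%, 0.459 to 0.733) and control_2 43 of 12444 (0.346%, 0.250 to 0.465). The intervals cover the counting of cells only. All 4 treated libraries lay above both controls, and the SLC+LPS libraries lay on either side of the LPS libraries.

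Group means were 7.11 ± 4.25% in SLC+LPS, 8.57 ± 0.794% in LPS and 0.465 ± 0.169% in control (SD, n = 2 each). The share is what the rule measured, so it carries no test, and with 2 libraries a group no exact permutation test could reach 0.05. Without neutrophil carriers the shares were 3.78% and 9.18% in the SLC+LPS libraries, 6.93% and 5.43% in the LPS libraries, and 0.529% and 0.329% in controls. When cells were thinned to 1000 UMIs each, they were 4.19% and 14.1%, 7.16% and 6.63%, and 0.360% and 0.377% in the same order of libraries. Treated libraries stayed above controls in both alternatives, and SLC+LPS_2 above both LPS libraries. Shares also depend on the other cells in the denominator. Cells carrying neutrophil transcripts, at least 2 of S100a8, S100a9, Csf3r, Cxcr2 and Retnlg, were left out of members and denominator alike. This kept 205 and 285 members in SLC+LPS, 223 and 239 in LPS, and 54 and 36 in controls. Shares were then 4.44% and 6.72% in SLC+LPS, 4.61% and 4.32% in LPS, and 0.566% and 0.360% in controls.

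**Figure D2:**
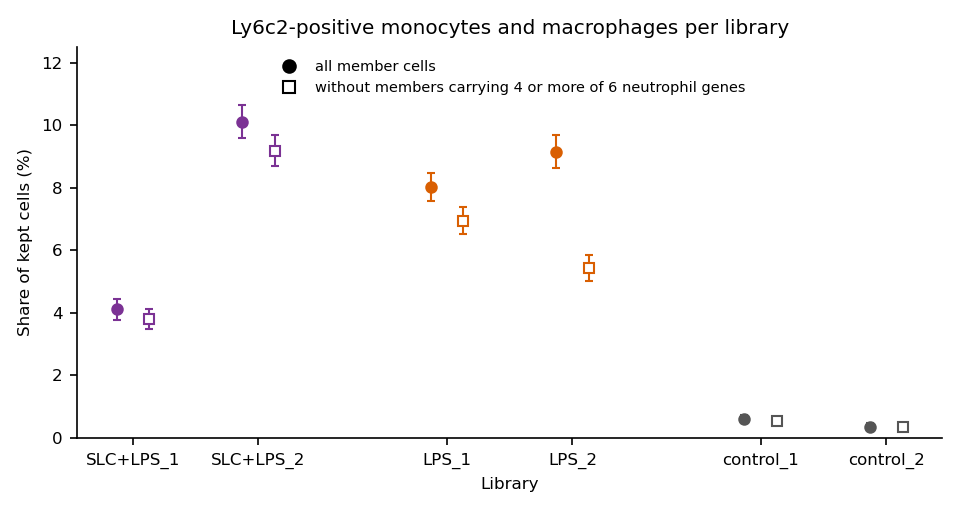
Members as percent of kept cells (vertical axis) in each library; filled circles stand for all members, open squares for members without neutrophil carriers, and bars for exact 95% binomial intervals. Over all members the treated libraries sit between 4.10% and 10.1%, above the controls at 0.346% and 0.584%.

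Members at the edge of the rule were counted for the panel and the C1q cut. Those with exactly 4 panel UMIs, just inside, were 49 and 135 in SLC+LPS, 127 and 68 in LPS, and 5 and 3 in control libraries. Cells with exactly 3 panel UMIs that met every other condition, just outside, were 115 and 214, 227 and 101, and 9 and 13. With 4 C1q UMIs, 18 and 59, 36 and 12, and 0 and 0 cells fell just outside. The cuts of under 2 genes were used more: 1 alveolar gene was seen in 58.6% and 44.2% of members in SLC+LPS, 49.5% and 26.6% in LPS, and 33.8% and 25.6% in controls. For 1 nonclassical gene the shares were 42.3% and 13.1% in SLC+LPS, 13.9% and 37.2% in LPS, and 33.8% and 23.3% in controls.

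Among the genes of the rule, Ly6c2 stood at 4348 and 6766 CPM in SLC+LPS members, 4829 and 5643 CPM in LPS members, and 3362 and 2997 CPM in control members. Ccr2, the receptor for monocyte chemoattractants, stood at 124 and 198 CPM in SLC+LPS, 224 and 274 CPM in LPS, and 811 and 591 CPM in controls. Ccr2 was thus lower in every treated library than in either control, and Ly6c2 higher. Ms4a4c varied widely among treated libraries, at 66.8 and 372 CPM in SLC+LPS and 294 and 889 CPM in LPS, against 537 and 624 CPM in controls. Ly6c2 and its neighbour Ly6c1 are near-identical, so how reads were split between them is uncertain; Ly6c1 reached at most 96.3 CPM.

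Gene levels were then compared between groups on UMI counts summed over each library's members, with edgeR's quasi-likelihood test and Benjamini-Hochberg adjustment over 11325 genes. A gene is called here at an adjusted p under 0.05, and its log2 fold change comes with a standard error. SLC+LPS against control gave 36 calls (0.318% of genes tested), 26 higher and 10 lower. LPS against control gave 23 (0.203%), 19 higher and 4 lower. SLC+LPS against LPS gave 0 (0%), with 394 genes at an unadjusted p under 0.05 and 5 called by DESeq2. The calls against control shared 20 genes, 16 higher in both and 4 lower in both, which were 55.6% of the SLC+LPS calls and 87.0% of the LPS calls; both comparisons use the same 2 control libraries. Control libraries decide these calls: without control_1 there were 0 calls in either comparison, and without control_2 there were 2 in each, Cd209a and the granule enzyme gene Elane.

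Nos2 and Slc7a2, genes of arginine use, were called higher in both treated groups than in control, and Arg1 in SLC+LPS. Nos2, which makes nitric oxide from arginine, stood at 50.7 and 147 CPM in SLC+LPS members and 384 and 472 CPM in LPS members, with no UMI in either control. All 4 treated libraries were above the controls, and both LPS libraries were above both SLC+LPS libraries. Against a floor of 3 counts over the 2 controls, Nos2 was at least 15.4-fold higher in SLC+LPS (adjusted p = 0.0199) and at least 61.5-fold higher in LPS (adjusted p = 0.00179). The SLC+LPS call ended in members with no UMI of the C1q, nonclassical or alveolar genes of the rule, when those with 2 or more UMIs of neutrophil genes were left out, and in a fit of the 2 groups alone.

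Slc7a2, a transporter that imports arginine, stood at 512 and 444 CPM in SLC+LPS, 728 and 306 CPM in LPS, and 19.4 and 33.3 CPM in controls. It rose by 4.51 ± 0.57 (log2 fold change ± SE, adjusted p = 0.00304) in SLC+LPS and by 4.71 ± 0.58 (adjusted p = 0.00179) in LPS, without overlap. Arg1, which splits arginine into ornithine and urea, stood at 732 and 165 CPM in SLC+LPS and 141 and 66.5 CPM in LPS, again with no UMI in controls. SLC+LPS_1 was the highest library and the other SLC+LPS library lay close to LPS_1. Arg1 was at least 56.8-fold higher in SLC+LPS than in control (adjusted p = 0.0462) and at least 14.7-fold higher in LPS, where it missed the threshold (adjusted p = 0.164). The SLC+LPS call of Arg1 ended with DESeq2's size factors, in a fit of the 2 groups alone, without the neutrophil carriers, without members of 2 or more neutrophil UMIs, without the 5% of members with most UMIs, and in members with no C1q, nonclassical or alveolar UMI.

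Among 7 arginine genes tested, 3 were called in SLC+LPS and 2 in LPS, each higher than in control, and 0 between the treated groups. Their median log2 fold change was 2.97 and 2.11 in SLC+LPS and LPS against control, where the median of all genes was 0.17 and 0.22. The estimated free RNA share of the Slc7a2 level was 93.3% in SLC+LPS and 55.4% in LPS. That of Nos2 was 35.8% and 9.85%, and that of Arg1 6.76% and 22.3%. These SLC+LPS shares include the capped estimate of SLC+LPS_2. Their part in the differences was not tested.

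**Figure D3:**
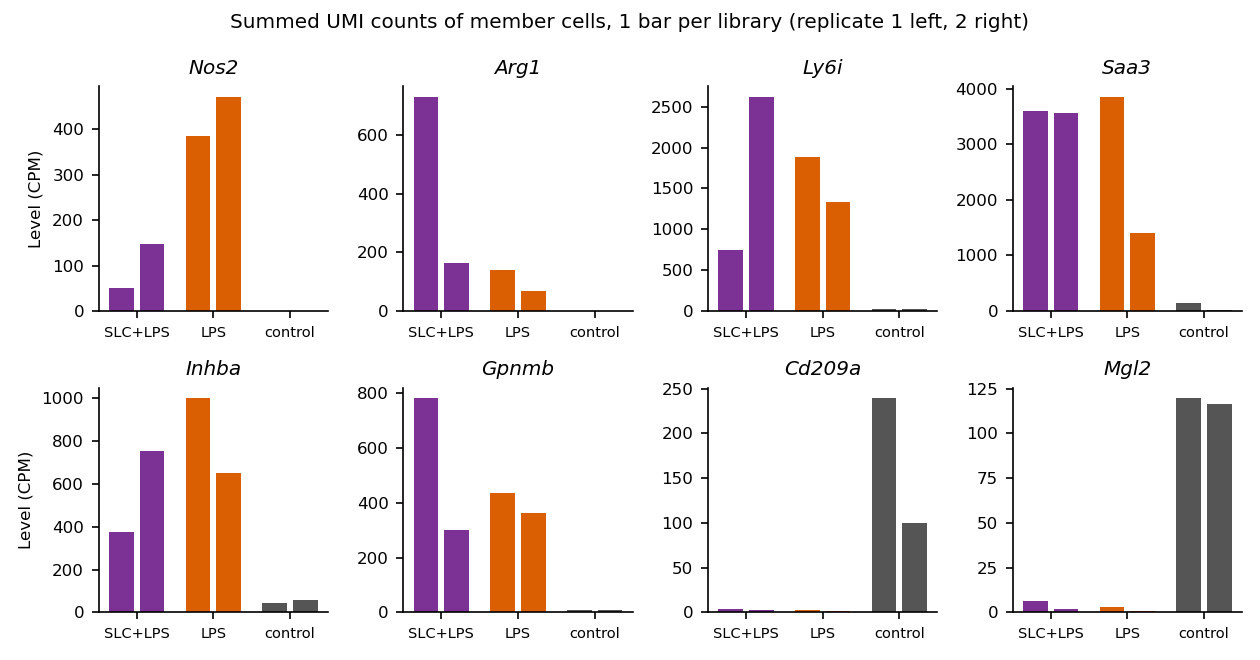
Level in CPM (vertical axis, from 0, own scale per gene) of 8 genes in summed members, with 1 bar per library in SLC+LPS, LPS and control. Nos2 and Arg1 have no UMI in controls; Nos2 is highest in both LPS libraries and Arg1 in SLC+LPS_1, while Cd209a and Mgl2 are high in controls.

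Secreted products came next. Saa3, an acute-phase protein made locally in inflamed tissue, stood at 3594 and 3558 CPM in SLC+LPS members, 3855 and 1393 CPM in LPS members, and 145 and 16.7 CPM in controls. It rose by 5.51 ± 0.78 in SLC+LPS (adjusted p = 0.0136) and 5.13 ± 0.77 in LPS (adjusted p = 0.0227). Treated and control libraries did not overlap, and LPS_2 was the lowest of the treated. Both Saa3 calls ended without the 5% of members with most UMIs. Saa3 UMIs also lay in 54.9% and 64.5% of lymphocytes of the SLC+LPS libraries and 68.1% and 6.4% of those of the LPS libraries, cells that should lack it.

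Inhba, the subunit of activin A, stood at 377 and 754 CPM in SLC+LPS, 999 and 651 CPM in LPS, and 42.0 and 58.3 CPM in controls. It rose by 3.75 ± 0.53 (adjusted p = 0.00715) in SLC+LPS and 4.43 ± 0.54 (adjusted p = 0.00179) in LPS. Its treated libraries all lay above both controls and overlapped each other. In SLC+LPS its estimated free RNA share was 30% or more. The SLC+LPS call of Inhba ended in members with no C1q, nonclassical or alveolar UMI. Il23a, the p19 subunit of interleukin 23, stood at 87.7 and 99.6 CPM in SLC+LPS, 146 and 109 CPM in LPS, and 16.2 and 8.33 CPM in controls, and was called in both, with an estimated free RNA share of 64.8% in SLC+LPS and 46.9% in LPS. Il12a, the p35 subunit of interleukin 12, stood at 73.7 and 34.8 CPM in SLC+LPS, 116 and 117 CPM in LPS, and 6.46 and 0 CPM in controls. Its ratio of LPS to control was 24.96 with a counting interval of 6.90 to 206 (adjusted p = 0.0154), and it was not called in SLC+LPS (adjusted p = 0.0942). Il1b, the interleukin 1 beta gene, was high everywhere, at 7499 and 8815 CPM in SLC+LPS, 9776 and 14604 CPM in LPS, and 8721 and 9209 CPM in controls.

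The start regions of genes that rose in both comparisons are shown because these genes moved together. Of 16 such genes, 11 had an entry in the RefSeq promoter table (GRCm38.p6, 250 bases before to 50 after the start). Motifs were searched on both strands: C/EBP as TTNNGCAA, AP-1 as TGANTCA and the gamma-activated site as TTCNNNGAA. The interferon-stimulated response element was TTTC and TTTC parted by NN, and kappa B was GGG and TTCC parted by NNN. Capitals mark a match, written on the strand of the gene.
Saa3, chr7:46715627-46715926, minus strand: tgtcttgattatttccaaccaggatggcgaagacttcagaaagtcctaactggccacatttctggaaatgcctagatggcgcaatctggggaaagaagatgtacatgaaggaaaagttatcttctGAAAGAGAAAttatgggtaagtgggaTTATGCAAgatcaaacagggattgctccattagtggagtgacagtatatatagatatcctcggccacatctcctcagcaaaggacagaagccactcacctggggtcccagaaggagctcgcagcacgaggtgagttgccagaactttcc
Inhba, chr13:16011601-16011900, plus strand: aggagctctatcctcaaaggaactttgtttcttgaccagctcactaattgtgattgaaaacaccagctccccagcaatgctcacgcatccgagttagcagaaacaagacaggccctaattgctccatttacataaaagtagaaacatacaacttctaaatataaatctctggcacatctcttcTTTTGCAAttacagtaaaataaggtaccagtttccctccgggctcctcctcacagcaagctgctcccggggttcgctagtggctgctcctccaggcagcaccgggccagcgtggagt
Gpnmb, chr6:49036268-49036567, plus strand: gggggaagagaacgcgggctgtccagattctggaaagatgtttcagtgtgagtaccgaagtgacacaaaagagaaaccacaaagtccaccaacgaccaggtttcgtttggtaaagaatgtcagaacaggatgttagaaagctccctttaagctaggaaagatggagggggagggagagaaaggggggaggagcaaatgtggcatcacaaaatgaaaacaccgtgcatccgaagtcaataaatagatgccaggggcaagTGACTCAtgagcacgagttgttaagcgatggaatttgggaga
Saa3 held TTATGCAA from position -99 and, on the opposite strand, an interferon-stimulated response element match from -125. Inhba held TTTTGCAA from -67, and Gpnmb held TGACTCA from position 9. The C/EBP letters were in 2 of the 11, against 10.6% of promoters of tested genes, and AP-1 also in 2 (AA467197 and Gpnmb), against 6.77%. The interferon-stimulated response element was in 1, against 4.06%. The gamma-activated site was in 0, against 8.37%, and kappa B in 0, against 7.41%. These matches describe letters in a window and say nothing of binding.

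Several called genes encode surface proteins. Ly6i, a GPI-anchored protein of the Ly6 family, stood at 751 and 2623 CPM in SLC+LPS members, 1885 and 1340 CPM in LPS members, and 29.1 and 24.98 CPM in controls. It rose by 6.12 ± 0.69 in SLC+LPS (adjusted p = 0.00194) and 6.21 ± 0.69 in LPS (adjusted p = 0.00169). The treated libraries overlapped each other and all exceeded controls by far. In SLC+LPS the estimated free RNA share of Ly6i was 30% or more. Treated members held Ly6i at 2.27 to 2.49 times its level in barcodes of 10 to 100 UMIs. Gpnmb, a transmembrane glycoprotein of phagocytes, stood at 782 and 300 CPM in SLC+LPS, 438 and 362 CPM in LPS, and 9.70 and 8.33 CPM in controls. It rose by 6.09 ± 0.72 in SLC+LPS (adjusted p = 0.00194) and 5.78 ± 0.71 in LPS (adjusted p = 0.00179). SLC+LPS_1 was the highest and SLC+LPS_2 the lowest of the treated libraries.

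Cd38, an ectoenzyme that consumes NAD, stood at 365 and 276 CPM in SLC+LPS, 244 and 411 CPM in LPS, and 16.2 and 24.98 CPM in controls, and rose by 4.28 ± 0.62 in SLC+LPS (adjusted p = 0.00774) and 4.51 ± 0.62 in LPS (adjusted p = 0.00392). The membrane metalloproteinase Mmp14 stood at 415 and 325 CPM in SLC+LPS, 323 and 104 CPM in LPS, and 16.2 and 16.7 CPM in controls, and rose by 4.71 ± 0.64 in SLC+LPS (adjusted p = 0.00522) and 3.98 ± 0.64 in LPS (adjusted p = 0.0153). The aminopeptidase Anpep stood at 246 and 156 CPM in SLC+LPS, 216 and 72.3 CPM in LPS, and 9.70 and 0 CPM in controls; its ratio to control was 27.6 (counting interval 9.42 to 134) in SLC+LPS and 20.3 (6.94 to 98.7) in LPS. The LPS call of Anpep ended without the 5% of members with most UMIs and with genes of high free RNA left out. Both calls of Anpep ended in members with no C1q, nonclassical or alveolar UMI. For each of these 3 genes the treated libraries lay above both controls. Podoplanin (Pdpn), the inhibitory receptor gene Cd300lf, the neutral amino acid transporter gene Slc7a8, the protease inhibitor gene Cstb and AA467197 were also called higher in both comparisons. Hspa1b was too, but it is near-identical to Hspa1a and reads could be split between them. Ccrl2, which binds the chemoattractant chemerin, stood at 1048 and 976 CPM in SLC+LPS, 1601 and 2734 CPM in LPS, and 230 and 516 CPM in controls. It rose in LPS (3.02 ± 0.54, adjusted p = 0.0307) and missed the threshold in SLC+LPS (adjusted p = 0.252). The LPS call of Ccrl2 ended with genes of high free RNA left out.

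The 16 genes called in SLC+LPS against control, and not in LPS against control, included Arg1, Fabp5, Fcgr2b and Ngp. Fabp5, a fatty acid carrier, stood at 371 and 266 CPM in SLC+LPS, 191 and 93.2 CPM in LPS, and 22.6 and 66.6 CPM in controls, and rose by 3.25 ± 0.57 in SLC+LPS (adjusted p = 0.0241). That call ended in members with no C1q, nonclassical or alveolar UMI. Fcgr2b, the inhibitory Fc gamma receptor, stood at 1679 and 1256 CPM in SLC+LPS, 1114 and 692 CPM in LPS, and 304 and 358 CPM in controls. In both genes each treated library was above each control, LPS_2 the lowest, and neither differed between the treated groups at the threshold. Acsl1, Aldoa, Anxa4, Lhfpl2, Plxna1 and Siglece were called higher as well, Aldoa at 754 and 491 CPM in SLC+LPS, 558 and 235 CPM in LPS, and 136 and 125 CPM in controls. The call of Aldoa (adjusted p = 0.0499) ended without SLC+LPS_1, with DESeq2's size factors and with genes of high free RNA left out. It also ended without the 5% of members with most UMIs, and in members with no C1q, nonclassical or alveolar UMI. A call in 1 comparison and not the other does not show that the groups differ, and the direct comparison had 0 calls.

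Genes that fell included lectins of dendritic cells and granule genes of neutrophils. Cd209a, a lectin of monocyte-derived dendritic cells, stood at 3.73 and 2.58 CPM in SLC+LPS members, 2.91 and 2.00 CPM in LPS members, and 239 and 99.9 CPM in controls. Its log2 fold change was -5.59 in SLC+LPS (SE 0.60, adjusted p = 0.00172) and -5.80 in LPS (SE 0.60, adjusted p = 0.00111). Mgl2, a galactose-binding lectin of dendritic cells and macrophages, stood at 6.22 and 1.72 CPM in SLC+LPS, 2.91 and 0.91 CPM in LPS, and 120 and 117 CPM in controls, and was called lower in both (adjusted p = 0.00792 in SLC+LPS and 0.00236 in LPS). Without the 5% of members with most UMIs the calls of Cd209a and Mgl2 ended. Those of Mgl2 also ended in members with no C1q, nonclassical or alveolar UMI. The treated libraries were all below both controls for these 2 genes. Dendritic cell markers, Cd209a among them, summed to 26 and 98 CPM in SLC+LPS, 97 and 27 CPM in LPS, and 456 and 291 CPM in controls; the plasmacytoid marker Siglech was at 0.6 and 5.2, 7.4 and 0.5, and 80.8 and 83.3 CPM. Their part in the result was not tested.

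Ngp stood at 124 and 138 CPM in SLC+LPS, 618 and 625 CPM in LPS, and 2182 and 1715 CPM in controls, with no overlap between any pair of groups. It fell by 3.68 in SLC+LPS against control (SE 0.46, adjusted p = 0.00279). That call of Ngp ended without the neutrophil carriers and in members with no C1q, nonclassical or alveolar UMI. Its difference between SLC+LPS and LPS was -2.41 (adjusted p = 0.331). The granule genes Camp and Ltf also fell in SLC+LPS; Camp stood at 15.9 and 20.6 CPM in SLC+LPS, 63.8 and 19.7 CPM in LPS, and 255 and 142 CPM in controls. Both of these calls ended without the neutrophil carriers, in members with no C1q, nonclassical or alveolar UMI, and with genes of high free RNA left out. Neutrophil markers summed to 2583 and 4975 CPM in SLC+LPS, 6646 and 28842 CPM in LPS, and 9594 and 4962 CPM in control members, and their part was not tested. Ifnb1, the interferon beta gene, stood at 0.93 and 1.502 CPM in SLC+LPS, 1.36 and 1.09 CPM in LPS, and 77.6 and 8.33 CPM in controls; it was called lower in both comparisons and its control level rested mainly on control_1. Inmt, a methyltransferase gene of lung stroma, was called lower in both too, at 19.0 and 21.0, 17.6 and 17.5, and 197 and 167 CPM. It is among the genes used to estimate free RNA, which members should lack, and among the fibroblast markers. Its estimated free RNA share was 30% or more in both comparisons, and the part of free RNA in its fall was not tested. The SLC+LPS call of Inmt ended in members with no C1q, nonclassical or alveolar UMI.

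Gene lists that fit these cells are described by their counts and medians. Of 22 genes of macrophage maturation, Gpnmb and Fabp5 were called in SLC+LPS and Gpnmb in LPS, each higher than in control. Their median log2 fold changes were 1.52 and 0.75 against control, and 0.71 between SLC+LPS and LPS, with all 22 above 0 in that last comparison, where 51% of all genes were above 0. Leaving out 1 treated library left 17 to 22 of them above 0 and medians of 0.44 (without LPS_2) to 1.59 (without LPS_1). Lpl, lipoprotein lipase, stood at 791 and 214 CPM in SLC+LPS, 158 and 65.2 CPM in LPS, and 139 and 142 CPM in controls. Both SLC+LPS libraries were above every LPS and control library, without a call.

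Classical monocyte genes, 18 in number, had 0 calls in each comparison and medians of -0.24 in SLC+LPS and 0.18 in LPS against control (-0.73 in LPS without LPS_2), and -0.46 between the treated groups, which turned to 0.14 without LPS_2. Within the list, Plac8 stood at 207 and 1216 CPM in SLC+LPS, 1112 and 4885 CPM in LPS, and 2984 and 4396 CPM in controls. F13a1 stood at 404 and 321 CPM in SLC+LPS, 272 and 552 CPM in LPS, and 1513 and 1274 CPM in controls. F13a1 was lower in every treated library than in either control, while for Plac8 LPS_2 lay above both controls. Lyz2, the lysozyme gene, stood at 40065 and 21636 CPM in SLC+LPS, 13249 and 8821 CPM in LPS, and 23756 and 31948 CPM in controls.

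Interferon genes had no call, and their levels split by library in SLC+LPS. The 16 genes of interferon-inducible GTPases and interferon gamma responses had medians of 2.66 in SLC+LPS and 3.43 in LPS against control, with all 16 above 0 in both, against 58.2% and 61.5% of all genes. None was called; Gbp7 came closest in LPS (adjusted p = 0.0781), at 76.2 and 234 CPM in SLC+LPS, 186 and 361 CPM in LPS, and 19.4 and 41.6 CPM in controls. The 21 type I interferon genes had medians of 0.02 in SLC+LPS and 1.75 in LPS, with 11 and 21 above 0 and 0 called; without LPS_2 the LPS median was 0.83. With DESeq2's size factors in edgeR the SLC+LPS median was -0.03. Rsad2, an antiviral enzyme, stood at 88.0 and 631 CPM in SLC+LPS, 579 and 1038 CPM in LPS, and 239 and 258 CPM in controls. SLC+LPS_1 was below the controls and SLC+LPS_2 lay among the LPS libraries. Between SLC+LPS and LPS the type I median was -1.61, with 0 of 21 above 0, and -0.60 without LPS_2.

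Cytokine and TLR4 genes also lay lower in SLC+LPS than in LPS, without a call. Of 12 interleukin and TNF family genes, a list that does not hold Il12a and Il23a, 0 were called, and between SLC+LPS and LPS 0 were above 0, with a median of -1.30, which was -0.28 without LPS_2. The 16 TLR4 signalling and feedback genes had medians of 0.40 in SLC+LPS and 0.88 in LPS against control (0.46 in LPS without LPS_2), and -0.59 between the treated groups, which was -0.08 without LPS_2. Acod1, which makes itaconate, stood at 1059 and 3035 CPM in SLC+LPS, 2932 and 6735 CPM in LPS, and 1312 and 1640 CPM in controls. LPS_2 was the highest and SLC+LPS_1 the lowest library. Among 19 chemokine genes, Ccrl2 was the 1 call, in LPS. The chemokine Cxcl9 stood at 95.4 and 578 CPM in SLC+LPS, 442 and 208 CPM in LPS, and 97.0 and 0 CPM in controls, so SLC+LPS_1 did not exceed control_1.

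Hypoxia and glycolysis genes were above 0 in all 18 for SLC+LPS (median 1.60) and for LPS (median 1.25), with Aldoa called in SLC+LPS. Of 20 growth factor and matricellular genes of repair, Inhba and Mmp14 were called in each comparison, with medians of 1.52 and 1.28. Of 12 acute-phase and antimicrobial genes, 1 was called in each, Saa3, with medians of 1.13 and 1.21. MHC class II genes were not called and had medians of -0.16 in SLC+LPS and -0.30 in LPS against control (0.48 in LPS without LPS_2). H2-Aa stood at 646 and 3537 CPM in SLC+LPS, 3013 and 396 CPM in LPS, and 3504 and 1832 CPM in controls, so each treated group held 1 high and 1 low library. The 14 cell cycle genes had medians of -0.20 and -0.09, the 11 scavenger and efferocytosis genes 0.99 and 0.74, and the 9 checkpoint genes 0.50 and 0.71, in SLC+LPS and LPS, with 0 calls in each list. Without LPS_2 the LPS medians of cell cycle and checkpoint genes were 0.22 and 0.40. Ly6i was the 1 call among 5 Ly6 family genes.

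Some genes differed as much between the libraries of a group as between groups. Cd74, the invariant chain of MHC class II, stood at 397 and 1776 CPM in SLC+LPS, 1891 and 301 CPM in LPS, and 2056 and 982 CPM in controls, so SLC+LPS_1 and LPS_2 were low for it as they were for H2-Aa. Ly6a, the surface protein Sca-1, stood at 103 and 1375 CPM in SLC+LPS, 858 and 879 CPM in LPS, and 107 and 142 CPM in controls. SLC+LPS_1 lay at the control level of Ly6a and the other 3 treated libraries far above it. S100a8, a calcium-binding protein of neutrophils and monocytes, stood at 990 and 2093 CPM in SLC+LPS, 2328 and 8187 CPM in LPS, and 4309 and 1965 CPM in controls, highest in LPS_2.

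**Figure D4:**
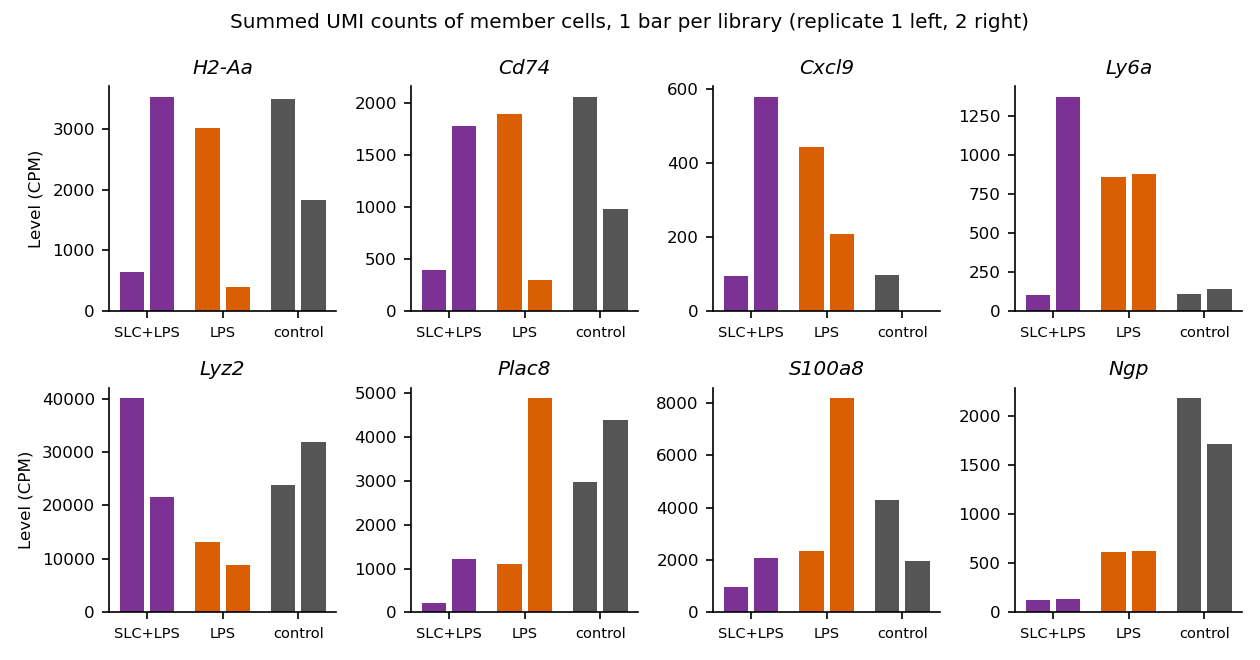
Level in CPM (vertical axis, from 0, own scale per gene) of 8 genes in summed members, with 1 bar per library (replicate 1 left). H2-Aa and Cd74 are low in SLC+LPS_1 and LPS_2 and high in their group partners, and Ngp separates SLC+LPS, LPS and control without overlap.

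**Figure D5:**
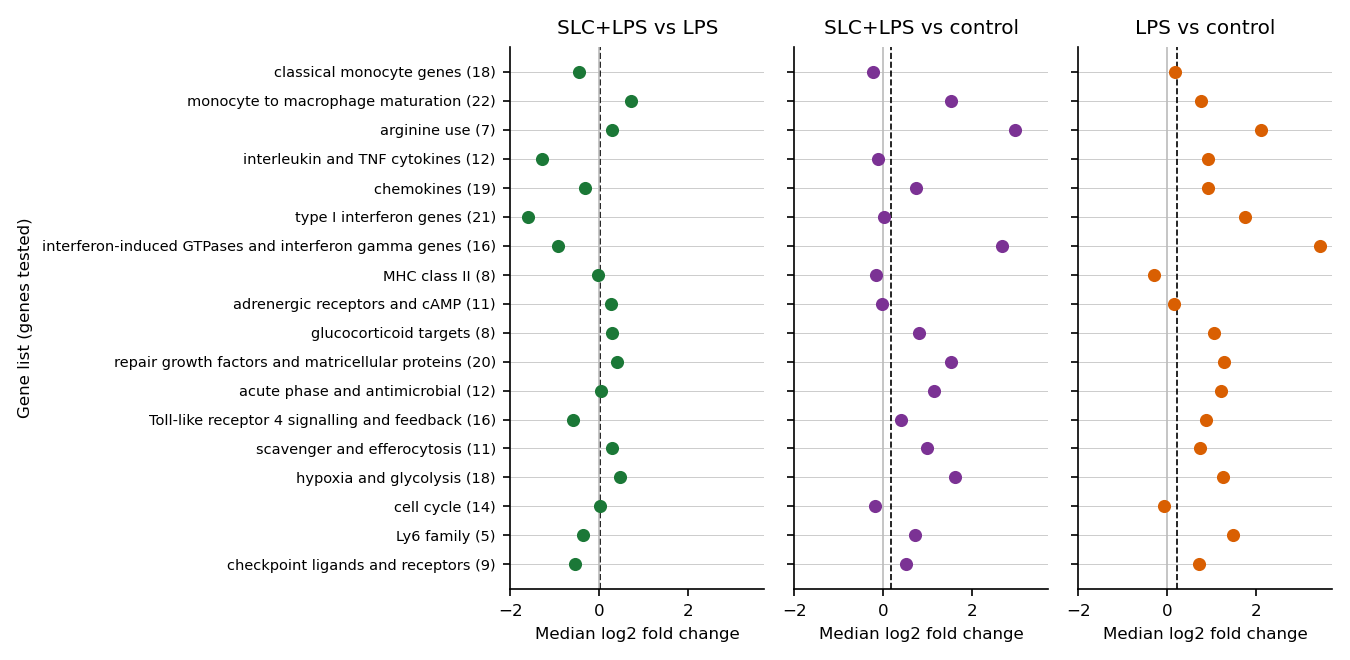
Median log2 fold change (horizontal axis) of each gene list, with the number of genes tested, in panels for SLC+LPS against LPS, SLC+LPS against control and LPS against control; dashed lines mark the median of all genes tested. Interferon-inducible GTPase and interferon gamma genes lie highest in LPS against control (3.43), and type I interferon genes lowest in SLC+LPS against LPS (-1.61).

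Receptors for the adrenergic and glucocorticoid signals were measured as well. Adrb1, the beta-1 receptor, had 20 counts in SLC+LPS, 7 in LPS and 1 in control members, and its UMIs lay in 0.2% to 0.9% of treated members against 1.3% to 1.9% of lymphocytes of the same libraries. Of 11 adrenergic genes tested, 0 were called and the medians were -0.03 in SLC+LPS and 0.14 in LPS against control (-0.15 in LPS without LPS_2). Of 8 glucocorticoid target genes 0 were called, with medians of 0.79 in SLC+LPS and 1.05 in LPS against control. Without LPS_2 these were 0.81 and 0.46, so their order turned. Fkbp5, a steroid-induced chaperone, stood at 153 and 132 CPM in SLC+LPS, 74.1 and 120 CPM in LPS, and 48.5 and 49.96 CPM in controls.

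SLC+LPS and LPS members were compared directly to ask what the activation added to LPS. The genes with the smallest p were Mid1, Ngp, H2-T23 and Nos2, and none was called. Mid1, a ubiquitin ligase, stood at 55.6 and 97.2 CPM in SLC+LPS, 11.8 and 4.73 CPM in LPS, and 12.9 and 8.33 CPM in controls (log2 fold change 3.10 ± 0.50, adjusted p = 0.231). The estimated free RNA share of its SLC+LPS level was 100%, a value that includes the capped estimate of SLC+LPS_2. Nos2 differed by -2.32 ± 0.53 (adjusted p = 1), and Arg1 by 2.05 (adjusted p = 1). H2-T23, a nonclassical MHC class I gene, stood at 32.0 and 20.4 CPM in SLC+LPS, 96.7 and 221 CPM in LPS, and 64.6 and 24.98 CPM in controls. The SLC+LPS and LPS libraries did not overlap for these 4 genes, but the genes were picked by their small p in this comparison. Their lack of overlap is therefore no further evidence. At the adjusted threshold no difference was detectable.

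The treated libraries did not sort by group. Over 5374 genes, the median absolute log2 difference was 0.307 between the SLC+LPS libraries and 0.592 between the LPS libraries, against 0.191 between SLC+LPS_2 and LPS_1 and 0.246 between SLC+LPS_1 and LPS_1. The closest pair thus crossed the groups. LPS_2 lay 0.592 to 0.711 from the other libraries, and 0.549 from LPS_1 without the neutrophil carriers. Without LPS_1, when LPS_2 alone stood for LPS, 1568 genes were called between SLC+LPS and LPS. Without LPS_2 there were 10, and without SLC+LPS_1 or SLC+LPS_2 there were 15 and 124.

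Single member cells were thinned to 2000 UMIs to compare shares with a UMI. Nos2 was seen in 5.58% and 19.5% of SLC+LPS members and in 30.9% and 28.3% of LPS members. In lymphocytes, which should lack it, it was seen unthinned in 2.19% and 4.31%, and 8.30% and 1.18%, at median depths of 1641 and 1771.5, and 1991 and 2160.5 UMIs. Arg1 was seen in 26.0% and 8.09% of SLC+LPS members and in 7.93% and 2.18% of LPS members, against 2.19% and 3.02%, and 3.46% and 0.321% of lymphocytes. For Nos2 the thinned shares were higher in both LPS libraries than in either SLC+LPS library, and unthinned they were 10.5% and 24.5% in SLC+LPS and 39.3% and 35.2% in LPS. Members of at least 2000 UMIs numbered 484 and 1014 in SLC+LPS, 946 and 1007 in LPS, and 70 and 35 in control libraries.

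Detection of Nos2 was also set against that of Arg1 within single members. Among thinned members with under 4 neutrophil genes, Nos2 was seen in 5.65% of cells with Arg1 and 5.17% of those without in SLC+LPS_1, and in 15.8% and 19.98% in SLC+LPS_2. In LPS_1 it was seen in 34.3% of cells with Arg1 and 32.2% without, and in LPS_2 in 45.5% of 22 cells with Arg1 and 27.6% without. Nos2 was seen about as often with Arg1 as without it in the first 3 of these libraries. Lymphocytes, which should lack Arg1, held it too, so these shares cannot tell whether the 2 transcripts belong to separate cells. Nos2 was seen more often in cells with Inhba than without: in 8.16% of cells with Inhba and 3.92% without in SLC+LPS_1, 27.3% and 12.4% in SLC+LPS_2, 44.0% and 19.8% in LPS_1, and 42.4% and 20.4% in LPS_2. Cells of 1 library share their source, so these shares carry no test.

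The LPS response of members was set against that of 2 other myeloid populations of the same lungs, each chosen by its own genes, in a fit with the library as a block. The 1582 nonclassical monocytes lay unevenly, with 125 and 43 in SLC+LPS, 91 and 910 in LPS, and 261 and 152 in controls. Most came from LPS_2, so few calls do not show a shared response. Against them, 1 of 7518 genes (0.0133%) differed in its response to LPS. That gene was Ly6i, which rose more in members by 3.48 ± 0.417 (adjusted p = 0.000695); in nonclassical monocytes it stood at 768 and 1900 CPM in SLC+LPS, 1256 and 1644 CPM in LPS, and 283 and 261 CPM in controls. The treated levels were alike in the populations, and the control level was the lower in members. Against 3108 alveolar macrophages, 55 of 12427 genes (0.443%) passed the threshold. Of these, 3 are genes of the rule (Adgre4, Ms4a4c and Ms4a6c) and carry no result; the other 52 held 43 with a higher response in members and 9 with a lower.

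Fpr1, the formyl peptide receptor, differed from alveolar macrophages by 2.96 ± 0.350 (adjusted p = 0.00521). It stood at 376 and 427 CPM in SLC+LPS members, 416 and 1153 CPM in LPS members, and 110 and 175 CPM in control members. In alveolar macrophages it stood at 520 and 375 CPM in SLC+LPS, 308 and 872 CPM in LPS, and 782 and 701 CPM in controls. The fits between populations were not repeated without the neutrophil carriers, which were most common in LPS_2. Mmp3 differed by 3.39 ± 0.442 (adjusted p = 0.0106) and Tcf7l2, a transcription factor of Wnt signalling, by 2.75 ± 0.378 (adjusted p = 0.0121). The part of free RNA in the Mmp3 difference was not tested. All 55 of these calls ended without either control library. The response of SLC+LPS against LPS differed in 0 genes from either population; without LPS_1 there were 217 genes against nonclassical monocytes and 1249 against alveolar macrophages.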

How the data were processed

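Whole-lung single-cell suspensions were digested with enzymes, cleared of dead cells, captured on the BD Rhapsody microwell system and sequenced on a DNBSEQ-T7, per the labels' protocols. The authors deposited 1 unfiltered matrix a library, with whole-number counts of UMIs for each gene and barcode. The submitters' processing notes name the builds GRCm39 and mm39, while the aligner and the counting tool are not given in the sources used here. Members and gene lists were chosen with earlier results of these data known.

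From the deposited counts, cells were filtered and members picked by the rule in the report, and their counts were summed per library. Rows were tested with edgeR 4.0.16 (R 4.3.3; filterByExpr, TMM, robust quasi-likelihood fit over all 6 libraries with group as the only term, Benjamini-Hochberg adjustment). DESeq2 1.42.0, other normalizations, filters, cell rules, a replicate block and leaving out each library were alternatives. The script was tested on simulated data. No doublet caller was run; leaving out the 5% of members with most UMIs was an alternative. Named genes were, per comparison, the 8 largest rises and falls among calls whose groups did not overlap and whose higher group reached 50 CPM, leaving out genes of the rule and predicted genes; the 4 smallest p where fewer than 4 were called; the 3 smallest p of each list; and a fixed set of genes given whatever their values, of which 1 is not reported here. Other genes named were picked after their values were seen. Replicate numbers did not pair the samples. Intervals and floors cover counting error only.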

Additional observations from a re-analysis of the deposited data

Results flagged for a closer look

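4 genes stood out because their response to LPS differed between members and another myeloid population of the same lungs, by the test of that difference (edgeR's quasi-likelihood test, Benjamini-Hochberg adjustment). Ly6i rose more in members than in nonclassical monocytes by 3.48 on the log2 scale (adjusted p = 0.000695). Fpr1 differed from alveolar macrophages by 2.96 (adjusted p = 0.00521), with members above their controls in all 4 treated libraries. Its member level was 1153 CPM in LPS_2, the library with most neutrophil carriers, and 416 CPM in LPS_1. In alveolar macrophages LPS_1 (308 CPM) lay below the controls (782 and 701 CPM) and LPS_2 (872 CPM) above them. The fits between populations were not repeated without carriers, so the part of carriers was not tested.

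Mmp3 differed by 3.39 (adjusted p = 0.0106), at 12.4 and 112 CPM in SLC+LPS members, 58.4 and 9.1 CPM in LPS members and 25.9 and 41.6 CPM in control members. In alveolar macrophages Mmp3 stood at 8.9 and 83.4 CPM in SLC+LPS, 11.1 and 2.4 CPM in LPS and 54.8 and 94.3 CPM in controls. The members' own LPS libraries lay on either side of their controls. In members, estimated free RNA was 23.5% and 100% (the cap) in SLC+LPS, 64.2% and 13.9% in LPS, and 22.9% and 21.1% in controls. In alveolar macrophages it was 21.9% and 40.2% in SLC+LPS, 22.5% and 6.54% in LPS, and 37.7% and 63.3% in controls. The part of free RNA in the Mmp3 difference was not tested. Tcf7l2 differed by 2.75 (adjusted p = 0.0121), at 175 and 107 CPM in SLC+LPS members, 83.9 and 98.5 CPM in LPS members and 25.9 and 41.6 CPM in control members. Its levels in alveolar macrophages were 343 and 205 CPM, 205 and 356 CPM, and 590 and 587 CPM in the same order of groups.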

How the results depend on the processing

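Control members were few, and the counts of calls against control moved most with the libraries. For LPS against control (23 calls), DESeq2 gave 114, no filter on low counts 282, only the 2 groups 49, the replicate block 235, leaving out genes of high free RNA 12, members with no C1q, nonclassical or alveolar UMI 36 and members under 2 neutrophil UMIs 39; leaving out 1 library gave 0 to 857. For SLC+LPS against control (36 calls) the same alternatives gave DESeq2 119, no filter 257, 2 groups 125, block 264, free RNA 14 and purer members 13, and 0 to 626 without 1 library. For SLC+LPS against LPS (0 calls) DESeq2 gave 5, no filter 100 and the block 83, and 0 to 1568 came without 1 library. Response differences between populations moved as well: against nonclassical monocytes the LPS response (1 call) gave 6 without free RNA genes, 29 with no filter and 2 to 158 without 1 library, and SLC+LPS against LPS (0 calls) gave 11 with no filter and 1 to 217. Against alveolar macrophages the LPS response (55 calls) gave 21, 435 and 0 to 736, and SLC+LPS against LPS (0 calls) gave 24 with no filter and 0 to 1249. The cause of these moves was not tested. The numbers share no pairing: deviations of same-numbered libraries correlated at -0.012, -0.042 and 0.101, so a block changes the count of calls but is not the design. The LPS share of 8.57% was 9.51% with stricter cell filters, 7.23% at 6 panel UMIs, 6.89% in thinned cells and 6.18% without carriers. It was 4.47% when cells carrying neutrophil transcripts were left out of members and denominator. The control share of 0.465% was 0.769% with stricter filters. No call of a named gene turned its direction. The SLC+LPS mean share, 7.11% and below LPS, was above LPS with stricter filters (10.3%), in thinned cells (9.13%) and without carriers (6.48%). It was also above LPS (5.58%) when cells carrying neutrophil transcripts were left out of members and denominator. At 6 panel UMIs the SLC+LPS mean stayed below LPS, at 5.95% against 7.23%. SLC+LPS_1 stayed the lowest treated library with stricter filters (4.63%), in thinned cells (4.19%) and without carriers (3.78%). Of 33 calls of named genes, 33 held under DESeq2, 27 without neutrophil carriers, 24 without the 5% of members with most UMIs, 19 with genes of high free RNA left out (7 were not fitted), 18 in purer members, 0 without control_1 and 2 without control_2. Leaving out neutrophil carriers, and keeping only members with no C1q, nonclassical or alveolar UMI, were chosen after seeing the data. Summed control members hold 120103 and 309360 UMIs, so low genes rest on few counts there.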
